A study of Homo sapiens with 9 samples.

Results

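The insulin-like growth factor (IGF) axis was followed in the Ewing sarcoma cell line TC-32 through 10 genes, chosen by name: the ligands IGF1 and IGF2, the receptor IGF1R, the receptor substrates IRS1, IRS2 and IRS4, and the binding proteins IGFBP2, IGFBP3, IGFBP4 and IGFBP5. They are 10 of the 58381 genes in the deposited tables, and each has 1 entry there. The choice was made with earlier results of these data known. TC-32 is an established human line driven by the EWSR1::FLI1 fusion. Messenger RNA was sequenced in 9 libraries, 3 in each of 3 groups. The RFP group carried the pLOC lentiviral vector with a red fluorescent protein. The ETS1-Low and ETS1-High groups carried the same vector with a human ETS1 cDNA, and they were obtained as single-cell clones with a lower and a higher ETS1 level. No group is labelled as depleted of the fusion, and all grew in serum-containing medium with a mycoplasma prophylactic. The protocol, which does not treat the groups apart, describes lentiviral transduction, polybrene, puromycin selection and single-cell sorting. The number of clones in each group, and whether the RFP cells were a clone, are not given, so the ETS1 level and the clone cannot be told apart. Nothing says that the libraries of a group came from separate cultures, and p-values then measure only the spread between these libraries, which may be technical.

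IGF1 and IGF2 are secreted ligands that activate the receptor tyrosine kinase IGF1R. The active receptor phosphorylates the adaptor proteins of the insulin receptor substrate (IRS) family, which recruit PI3-kinase and so lead to AKT. The IGF binding proteins (IGFBPs) are secreted, hold the ligands with high affinity, and can limit or prolong their access to the receptor depending on the setting. In Ewing sarcoma, IGF1R signalling is known as a survival pathway, IGFBP3 is known as a gene repressed by EWSR1::FLI1, and IGF1R has been a clinical drug target.

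Promoters of 3 binding protein genes are shown because these genes show 3 patterns described below: IGFBP5 rose steeply in both ETS1 groups, IGFBP4 rose mainly in ETS1-High, and IGFBP3 was high in ETS1-High while RFP and ETS1-Low overlapped. Each line gives the 250 bases before the RefSeq start on the gene's strand (build GRCh38.p14), and capitals mark GGAA, the core letters of ETS binding motifs, or its reverse complement TTCC. The windows are chr2:216695550-216695799 on the minus strand for IGFBP5, chr17:40443200-40443449 on the plus strand for IGFBP4 and chr7:45921273-45921522 on the minus strand for IGFBP3. The RefSeq start of IGFBP3 lies within the GENCODE v44 span of the gene, whose annotated start is further upstream, so this window is not the sequence before the outermost start.
IGFBP5: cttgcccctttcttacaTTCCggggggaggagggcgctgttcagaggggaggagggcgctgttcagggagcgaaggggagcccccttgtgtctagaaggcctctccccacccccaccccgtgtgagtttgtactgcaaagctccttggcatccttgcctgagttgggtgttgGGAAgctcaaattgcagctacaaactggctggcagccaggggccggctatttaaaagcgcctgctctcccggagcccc
IGFBP4: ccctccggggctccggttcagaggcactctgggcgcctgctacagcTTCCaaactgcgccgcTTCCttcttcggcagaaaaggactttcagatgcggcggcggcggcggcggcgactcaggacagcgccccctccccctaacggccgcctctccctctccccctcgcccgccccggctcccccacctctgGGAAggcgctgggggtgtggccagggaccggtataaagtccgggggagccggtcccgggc
IGFBP3: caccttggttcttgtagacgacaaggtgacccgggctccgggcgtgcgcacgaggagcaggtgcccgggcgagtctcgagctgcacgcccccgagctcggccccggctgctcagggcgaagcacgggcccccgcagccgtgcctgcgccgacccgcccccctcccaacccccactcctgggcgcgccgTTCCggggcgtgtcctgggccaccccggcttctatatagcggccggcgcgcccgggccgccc

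The RefSeq promoter table matched 9 of the 10 genes, with 13 windows in all, and IGF2 had no entry. GGAA on either strand occurred 2 times before the start of IGFBP5, 3 times before IGFBP4 and 1 time before IGFBP3. Of the 13 windows, 12 held this core (92.3%), against 92.7% of the 35116 promoter windows in the table, where the median was 3 cores. Longer motifs were searched on both strands of the whole windows of 300 bases, including 50 bases after the start. CCGGAAGT (a high-affinity ETS site, overlapping CGGAAG and GGAA) was held by 4.14% of all windows, CGGAAG by 19.5%, the GGAA repeat pair GGAAGGAA by 3.67% and the AP-1 motif TGANTCA by 7.71%. None of these 4 motifs was in a window of the 9 matched genes, which says only that these letters are absent from these windows.

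Library totals lay between 39484704 and 46654734 expected counts. ETS1 itself was 2.00 ± 0.174 CPM (counts scaled to library size, SD, n = 3) in RFP, 10.6 ± 0.298 in ETS1-Low and 19.1 ± 0.806 in ETS1-High, in the order of the labels and without overlap. Ewing sarcoma markers were present at an FPKM (fragments per kilobase of transcript, scaled to library size) of at least 1 in every library of the group for 11 of 12 genes in RFP and for 12 of 12 in both ETS1 groups. Their summed FPKM was 1102 to 1124 in RFP, 1572 to 1600 in ETS1-Low and 1596 to 1611 in ETS1-High. Of 9 fibroblast markers, 5 reached that FPKM in RFP and 4 in each ETS1 group, with summed FPKM of 120.6 to 124.9, 77.8 to 79.3 and 110.6 to 114.9, and COL1A2 was listed at 0 FPKM in both ETS1 groups, LUM in RFP and ETS1-Low and FAP in RFP. None of 5 blood markers reached it in every library of a group, though CD14 was at 1.04 in RFP replicate 2, and the part of these markers in the results was not tested.

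Changes were called with edgeR's quasi-likelihood test at an adjusted p (Benjamini-Hochberg over all 17235 genes tested) under 0.05. In ETS1-High against RFP, 8 of the 10 genes rose, IRS4 fell and IGF2 was not called. That comparison called 74.2% of all genes tested, 37.0% higher and 37.2% lower. In ETS1-Low against RFP, 7 rose and 3 fell (IRS2, IRS4 and IGFBP3), where 74.1% of all genes were called, 37.9% higher and 36.2% lower. Between ETS1-High and ETS1-Low, 7 were higher in ETS1-High, IGF2 and IGF1R were lower and IRS4 was not called, where 59.2% of all genes were called, 29.9% higher and 29.3% lower. In the same order, 8, 5 and 3 of the 10 genes were called with at least a 2-fold change, against 21.0%, 20.6% and 9.74% of all genes. The median log2 fold change of the 10 genes was 1.13, 0.45 and 0.81 in the order given, and that of all genes was -0.01, 0.01 and 0. All 10 passed the filter on low counts, but IRS4 passed through its RFP libraries and IGF2 through its ETS1-Low libraries, so the counts and medians include 2 genes that had to differ. The 10 genes were also chosen with earlier results of these data known. These shares and medians are therefore a description of the 10 genes and no support for a response of the axis. The comparisons of both ETS1 groups share the RFP libraries. With deposited FPKM values in place of counts, 38.1% to 39.6% of called genes were higher in ETS1-High against RFP, where the count test gave 49.8%, and 36.5% to 38.9% in ETS1-Low against RFP, where it gave 51.2%.

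**Figure D1:**
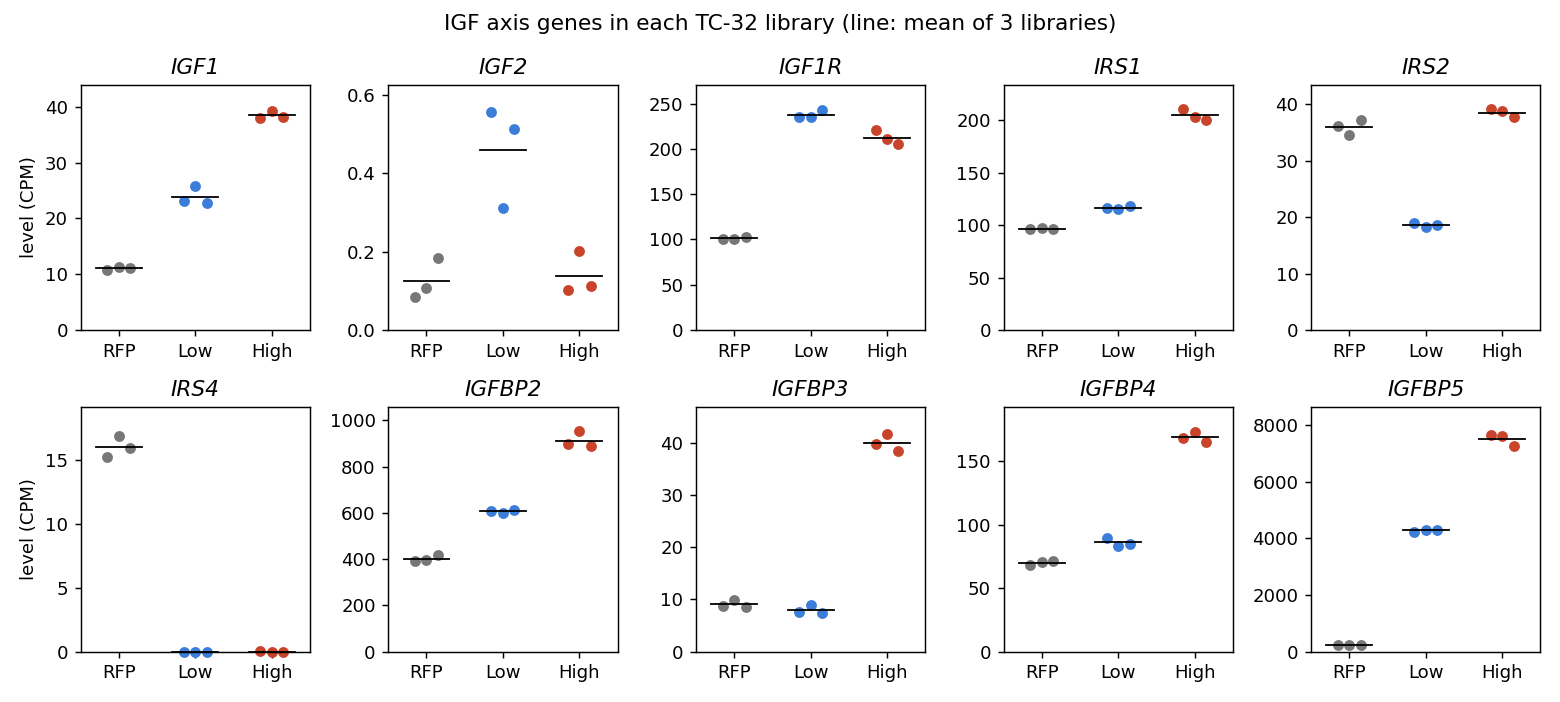
Level of each of the 10 genes in every library (vertical axes, CPM, each from 0 and scaled to its gene; points are libraries, lines the mean of 3). IGF1, IRS1, IGFBP2, IGFBP4 and IGFBP5 step up from RFP to ETS1-Low to ETS1-High without overlap, while IRS4 is near 0 in both ETS1 groups.

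Among the ligands, IGF1 rose from RFP to ETS1-Low to ETS1-High and IGF2 stayed at the edge of detection. IGF1, the main circulating and local growth-promoting ligand, was at 10.7, 11.3 and 11.2 CPM in the RFP libraries, 23.1, 25.8 and 22.7 in ETS1-Low and 38.1, 39.3 and 38.2 in ETS1-High. The 3 groups did not overlap. On the log2 scale it exceeded RFP by 1.80 ± 0.052 (SE) in ETS1-High and by 1.11 ± 0.055 in ETS1-Low, with adjusted p of 5.75e-34 and 3.82e-24 by edgeR, and ETS1-High exceeded ETS1-Low by 0.69 ± 0.048. The longest overlap of an IGF1 exon with an exon of the antisense lncRNA HELLPAR is 6693 bases. HELLPAR fell from 17.4 CPM in RFP to 14.7 in ETS1-Low and 11.1 in ETS1-High, the opposite direction. The library kit marks strand, but whether the counting used it is not given in the sources used here, so the split between these 2 genes is uncertain.

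IGF2, the fetal ligand that also binds the insulin receptor, had expected counts of 4, 5 and 9 in the RFP libraries, 21.1, 14 and 21 in ETS1-Low and 4, 9 and 5 in ETS1-High. The ETS1-Low libraries lay above all others, and RFP and ETS1-High overlapped. ETS1-Low exceeded RFP by a log2 fold change of 1.84 ± 0.433 (edgeR, adjusted p = 0.000172), and ETS1-High differed from ETS1-Low by -1.69 ± 0.434 (adjusted p = 0.000748). IGF2 passed the filter on low counts through its ETS1-Low libraries, so it had to differ to be tested. With no filter the adjusted p of these comparisons was 0.000198 and 0.00114 (edgeR). In ETS1-High against RFP it was 0.15 with a 95% confidence interval of -0.92 to 1.22, so a change of either direction up to about that size was not detectable at this depth. Neither call held with FPKM values, where the adjusted p lay between 0.0881 and 0.165 for ETS1-Low against RFP and between 0.129 and 0.232 for ETS1-High against ETS1-Low. INS-IGF2 and IGF2-AS, which overlap IGF2, were listed at 0 counts in every library. H19, the noncoding gene next to IGF2 on chromosome 11 that is normally expressed from the other parental allele, had 2 to 11 counts in RFP, 1 to 2 in ETS1-Low and 46 to 54 in ETS1-High. H19 was chosen after its values were seen.

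IGF1R, the receptor, was about 2-fold higher in both ETS1 groups. Its libraries were at 100.5, 100.4 and 102.5 CPM in RFP, 234.8, 235.0 and 243.5 in ETS1-Low and 220.6, 211.3 and 205.8 in ETS1-High. Like IGF2, it had its highest level in ETS1-Low, and no groups overlapped. Against RFP the log2 fold change was 1.07 ± 0.031 for ETS1-High and 1.23 ± 0.031 for ETS1-Low (adjusted p of 6.95e-34 and 1.64e-36, edgeR), and the log2 fold change between ETS1-High and ETS1-Low was -0.16 ± 0.030 (adjusted p = 7e-06).

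The 3 receptor substrates each followed another pattern. IRS1, the main adaptor of IGF1R in many cell types, was at 96.7, 97.0 and 96.2 CPM in RFP, 115.9, 115.0 and 118.0 in ETS1-Low and 210.8, 203.4 and 200.7 in ETS1-High. Most of its rise lay between ETS1-Low and ETS1-High. The log2 fold change was 0.27 ± 0.031 in ETS1-Low against RFP and 0.82 ± 0.030 from ETS1-Low to ETS1-High (adjusted p of 8e-11 and 7.91e-29, edgeR).

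IRS2, an adaptor that FOXO factors are known to induce, was at 36.2, 34.5 and 37.2 CPM in RFP, 18.9, 18.3 and 18.6 in ETS1-Low and 39.2, 38.7 and 37.7 in ETS1-High. It was low in ETS1-Low, with a log2 fold change of -0.96 ± 0.045 against RFP, and ETS1-High exceeded ETS1-Low by 1.05 ± 0.045 (adjusted p of 5.72e-25 and 3.64e-26, edgeR). Its rise in ETS1-High over RFP, 0.10 ± 0.041 (adjusted p = 0.0273, edgeR), did not hold with DESeq2 size factors (0.0508), upper-quartile factors (0.394), the DESeq2 Wald test (0.111) or without RFP replicate 2 (0.163), ETS1-High replicate 1 (0.0712) or ETS1-High replicate 2 (0.0511), and with FPKM values its sign turned.

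IRS4, an adaptor on the X chromosome that signals to PI3-kinase even with little ligand, had expected counts of 736, 794 and 778.1 in the RFP libraries, 0 in each ETS1-Low library and 1, 0 and 0 in ETS1-High. RFP stood apart from both ETS1 groups. Against a floor of 3 counts per library, which covers counting error only, IRS4 was at least 219.7-fold lower in ETS1-Low than in RFP. For ETS1-High, the ratio of RFP to ETS1-High from 1 count in all was 2070, with a 95% counting interval of 371.2 to 81810. The difference from RFP was called in both groups (adjusted p of 1.08e-37 and 1.79e-37, edgeR), for a gene that passed the filter on low counts through its RFP libraries and so had to differ. ETS1-High and ETS1-Low were not told apart (adjusted p = 0.324). IRS4-AS1, which overlaps IRS4 on the other strand, had at most 59 counts in a library. It was at 1.05 CPM in RFP and at 0 in both ETS1 groups, as low there as IRS4.

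**Figure D2:**
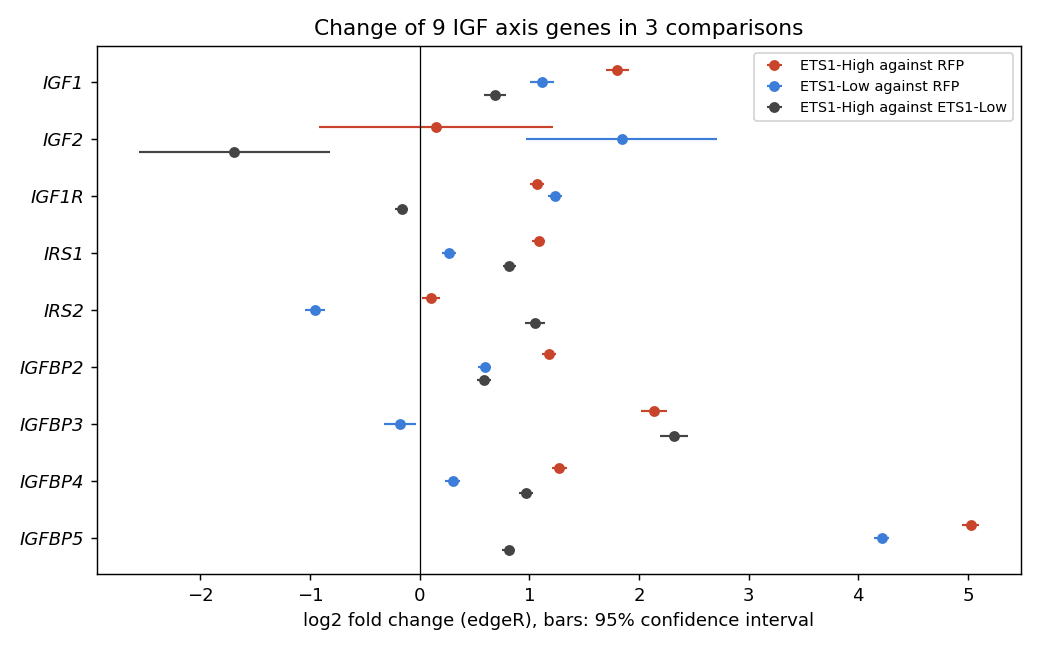
Log2 fold change (horizontal axis) of 9 of the genes in 3 comparisons, with 95% confidence intervals from the edgeR fit; IRS4 is left out because its fitted values depend on the prior count. IGFBP5 stands at 5.02 and 4.21 against RFP, and IRS2 and IGFBP3 lie on opposite sides of 0 in the 2 comparisons with RFP.

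The binding proteins rose together in ETS1-High, and IGFBP5 far more than the others. IGFBP5, which binds extracellular matrix and bone mineral besides the ligands, was at 228.0, 229.1 and 235.4 CPM in RFP, 4228, 4303 and 4310 in ETS1-Low and 7641, 7617 and 7268 in ETS1-High. No groups overlapped, and the lowest ETS1-Low library was far above the highest RFP library. The change was 18.5-fold in ETS1-Low (log2 fold change 4.21 ± 0.035, adjusted p = 9.84e-58, edgeR) and 32.5-fold in ETS1-High (5.02 ± 0.036, adjusted p = 1.48e-60). The step from ETS1-Low to ETS1-High was 1.75-fold (0.81 ± 0.031, adjusted p = 1.77e-28). IGFBP5 took 0.0244% of all counts in RFP, 0.412% in ETS1-Low and 0.737% in ETS1-High. By FPKM it moved from rank 2356 to 2476 over the RFP libraries to rank 142 to 147 in ETS1-Low and 82 to 92 in ETS1-High.

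IGFBP2, a binding protein common in fetal tissue and many tumours, was at 393.1, 398.4 and 416.8 CPM in RFP, 610.4, 601.5 and 611.0 in ETS1-Low and 896.6, 953.1 and 888.7 in ETS1-High. The groups rose in even steps, with log2 fold changes of 0.59 ± 0.031 from RFP to ETS1-Low and 0.59 ± 0.030 from there to ETS1-High (adjusted p of 2.95e-23 and 9.26e-23, edgeR). IGFBP4, the binding protein cleaved by the protease PAPPA, was at 68.0, 70.3 and 71.2 CPM in RFP, 89.7, 83.6 and 85.1 in ETS1-Low and 168.2, 173.3 and 165.3 in ETS1-High. Its first step was small, 0.30 ± 0.034 on the log2 scale, and its second was 0.97 ± 0.032 (adjusted p of 2.73e-11 and 8.5e-31, edgeR).

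IGFBP3, the main carrier of IGFs in serum, was at 8.77, 9.92 and 8.59 CPM in RFP, 7.70, 8.94 and 7.40 in ETS1-Low and 39.9, 41.8 and 38.5 in ETS1-High. RFP and ETS1-Low overlapped, and all ETS1-High libraries stood above both. The log2 fold change was 2.14 ± 0.060 against RFP and 2.32 ± 0.063 against ETS1-Low (adjusted p of 2.89e-33 and 2.51e-33, edgeR). The small fall in ETS1-Low, -0.18 ± 0.072 (adjusted p = 0.0253, edgeR), was lost without RFP replicate 2 (0.178), without ETS1-Low replicate 1 (0.103), without ETS1-Low replicate 3 (0.176) and with FPKM and a pseudocount of 1 (0.0535, and 0.109 without the filter on low values).

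Levels of different genes were compared by deposited FPKM, which is per gene length. The summed FPKM of IGFBP1 to IGFBP6 was 498.8 ± 13.9 (SD, n = 3) in RFP, 1296 ± 8.85 in ETS1-Low and 2214 ± 53.2 in ETS1-High. IGFBP1 was listed at 0 in every library. IGFBP2 held 83.0% ± 0.0725 of the sum in RFP, 42.8% ± 0.439 in ETS1-Low and 39.4% ± 0.931 in ETS1-High. IGFBP5 held 8.23% ± 0.0868, 53.3% ± 0.563 and 55.7% ± 0.912. The leading binding protein transcript was thus IGFBP2 in all RFP libraries and IGFBP5 in all libraries of both ETS1 groups, and the FPKM ratio of IGFBP5 to IGFBP2 went from 0.0992 ± 0.00109 in RFP to 1.24 ± 0.0256 in ETS1-Low and 1.41 ± 0.0568 in ETS1-High. The summed binding protein FPKM was 51.7 ± 1.16 times that of IGF1R in RFP, 59.2 ± 2.21 times in ETS1-Low and 115.3 ± 5.71 times in ETS1-High. Set against IGF1, the same sum was 146.5 ± 3.49, 124.8 ± 2.31 and 155.4 ± 5.75 times as high. By FPKM, IGF1 went from 3.41 in RFP to 10.4 in ETS1-Low and 14.3 in ETS1-High. By CPM it went from 11.1 to 23.9 and 38.5, a smaller first step. The lower ratio in ETS1-Low therefore rests on FPKM, and the cause of this disagreement was not tested. These are transcript levels only.

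**Figure D3:**
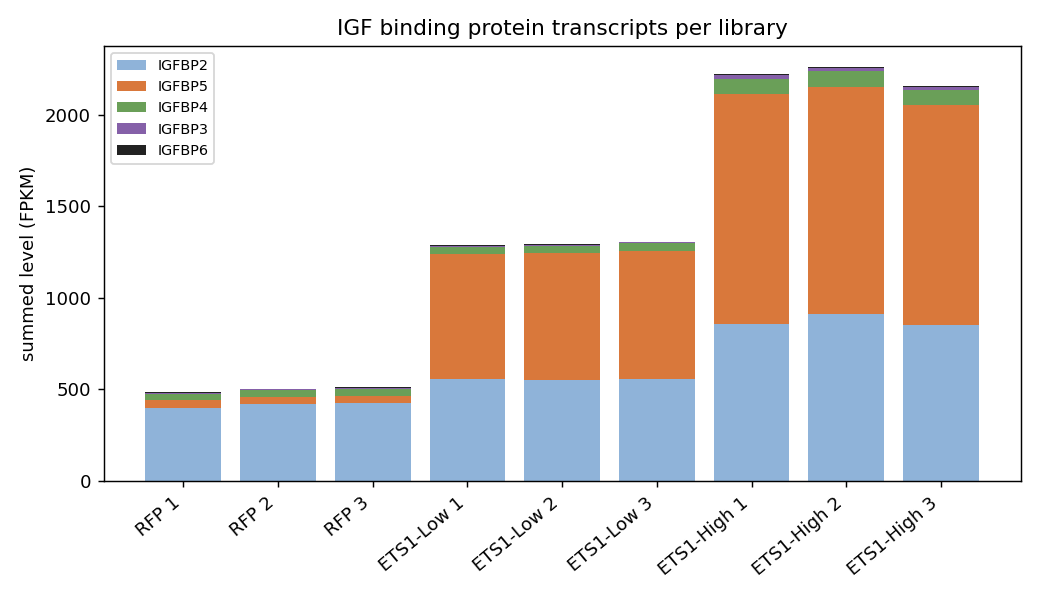
Summed FPKM of the IGF binding proteins (vertical axis) in each library, stacked by gene. The sum is 483.2 to 509.9 in RFP with IGFBP2 as the main part, and IGFBP5 forms the largest part in all 6 ETS1 libraries.

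The order of levels changed between the groups. By FPKM in RFP, IGFBP2 (413.8) led, followed by IGFBP5 (41.0), IGFBP4 (36.5), IRS1 (11.4) and IGF1R (9.65). IRS2, IGFBP3 and IRS4 came next, overlapping one another between 4.12 and 5.10 over their libraries, then IGF1 (3.41) and IGF2 (0.04). In ETS1-Low the order was IGFBP5 (690.6), IGFBP2 (555.3), IGFBP4 (41.0), IGF1R (21.9), IRS1 (12.4), IGF1 (10.4), IGFBP3 (3.89), IRS2 (2.25) and IGF2 (0.09), each apart from the next, with IRS4 listed at 0. In ETS1-High it was IGFBP5 (1233), IGFBP2 (873.2), IGFBP4 (82.2), IRS1 (23.6), then IGF1R (19.2) and IGFBP3 (19.2), whose libraries overlapped, IGF1 (14.3) and IRS2 (4.76). IGF1R stood above IRS1 only in ETS1-Low, where their FPKM ratio was 1.76 ± 0.116, against 0.849 ± 0.0194 in RFP and 0.816 ± 0.0148 in ETS1-High.

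IGFBP2 and IGFBP5 are neighbours on chromosome 2, facing each other with 7668 bases between them. In GENCODE v44 on GRCh38, IGFBP2 lies at chr2:216632828-216664436 on the plus strand and IGFBP5 at chr2:216672105-216695549 on the minus strand. IGFBP2 rose far less than IGFBP5, as its values above show. The next tested gene beyond the start of IGFBP5, 588470 bases away, was the lncRNA DIRC3. DIRC3 was at 3.79 ± 0.269 CPM in RFP, 89.9 ± 3.43 in ETS1-Low and 110.9 ± 3.10 in ETS1-High, which is a difference from RFP of 4.57 and 4.87 on the log2 scale (adjusted p = 2.21e-53 in ETS1-High, edgeR). RPL37A, the next tested gene on the IGFBP2 side, rose by 0.28 in ETS1-Low and 0.32 in ETS1-High, and TNS1 beyond DIRC3 fell by 1.37 and 1.10 on the log2 scale. Of the 33 other tested genes within 2 Mb of IGFBP5, 28 rose and 3 fell in ETS1-High against RFP, with a median change of 0.66 (log2), where 37.0% of all genes rose. Counts of IGFBP2 were not whole in 9 libraries and those of IGFBP5 in 8, so some reads were shared between genes by the counting.

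IGFBP3 lies at chr7:45912245-45921874 on the minus strand. The next tested gene on the side of its start was TNS3, 1353280 bases away, which codes for a focal adhesion protein. TNS3 was at 22.6 ± 1.10 CPM in RFP, 22.9 ± 0.443 in ETS1-Low and 112.3 ± 7.60 in ETS1-High. Of the 31 other tested genes within 2 Mb of IGFBP3, 8 rose and 13 fell in ETS1-High against RFP, with a median of -0.14 (log2), where 37.0% of all genes rose and 37.2% fell. Those nearest on the other side, AC096582.7 and SEPT13, fell by 0.81 and 0.38 on the log2 scale.

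IRS4 lies at chrX:108719946-108736563 on the minus strand, next to the collagen IV genes COL4A5 and COL4A6, which were also near 0 in both ETS1 groups. COL4A5 had 2263 to 2395 counts in the RFP libraries, 0 to 1 in ETS1-Low and 3 to 5 in ETS1-High. COL4A6 had 105 to 114, 0 and 0 to 1 counts, at least 31.3-fold lower in ETS1-Low by the floor of 3 counts. On the other side, 799218 bases away, NXT2 was at 24.7 ± 0.402 CPM in RFP, 29.1 ± 0.725 in ETS1-Low and 86.2 ± 1.57 in ETS1-High. Of the 19 other tested genes within 2 Mb of IRS4, 17 fell and 2 rose in ETS1-Low against RFP, where 36.2% of all genes fell, and 10 fell and 6 rose in ETS1-High. COL4A5, COL4A6 and NXT2 were chosen after their values were seen.

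**Figure D4:**
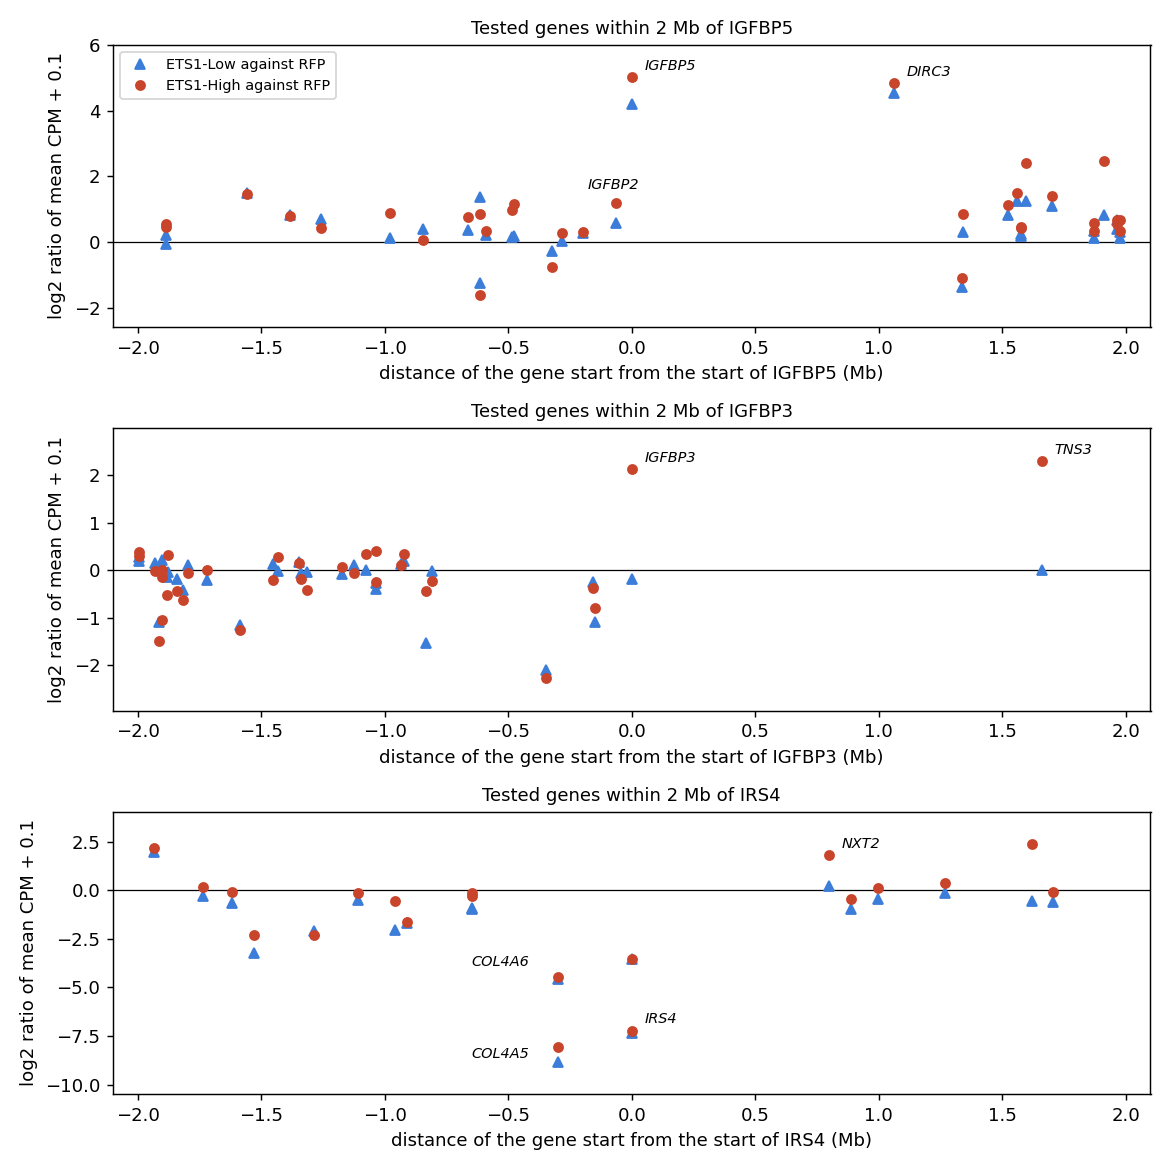
Log2 ratio of mean CPM plus 0.1 against RFP (vertical axes) for the tested genes within 2 Mb of IGFBP5, IGFBP3 and IRS4, by distance between gene starts in Mb (horizontal axes); the ratios of genes near 0 counts depend on the added 0.1. DIRC3 stands with IGFBP5, and COL4A5 and COL4A6 with IRS4. TNS3 stands with IGFBP3, both above RFP in ETS1-High and near the RFP level in ETS1-Low.

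Gene by gene, the change was set beside the median of the tested genes within 10 Mb, since genes of a chromosome region can shift together between clones. Around IGFBP2 and IGFBP5, the median of 101 genes against RFP was 0.53 for ETS1-High and 0.28 for ETS1-Low, and IGFBP2 changed by 1.18 and 0.59 and IGFBP5 by 5.02 and 4.21. Around IRS1, also on chromosome 2, the median of 116 genes was 0.50 for ETS1-High and 0.26 for ETS1-Low, and the change of IRS1 in ETS1-Low, 0.27, was close to that median (within 5 Mb, the median of 41 genes was 0.20). Around IGF1R on chromosome 15, the median of 81 genes against RFP was 0.03 for ETS1-High and 0.35 for ETS1-Low, it was -0.33 between these groups, and the difference of IGF1R between ETS1-High and ETS1-Low, -0.16, was in the same direction and smaller. Around IRS2 the median of 57 genes was -0.29 in ETS1-Low against RFP (-0.07 for 43 genes within 5 Mb), where IRS2 changed by -0.96. For ETS1-High it was -0.10 (0.15 within 5 Mb), where IRS2 changed by 0.10. Around IGF2 the median of 139 genes against RFP was 0.37 for ETS1-Low, where IGF2 changed by 1.84, and 0.31 for ETS1-High. Around IRS4 the median of 100 genes was -0.11 in ETS1-High and -0.70 in ETS1-Low. Around IGF1, IGFBP3 and IGFBP4 the medians against RFP lay between -0.18 and 0.07. The part of these regional shifts in each gene's change was not tested.

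**Figure D5:**
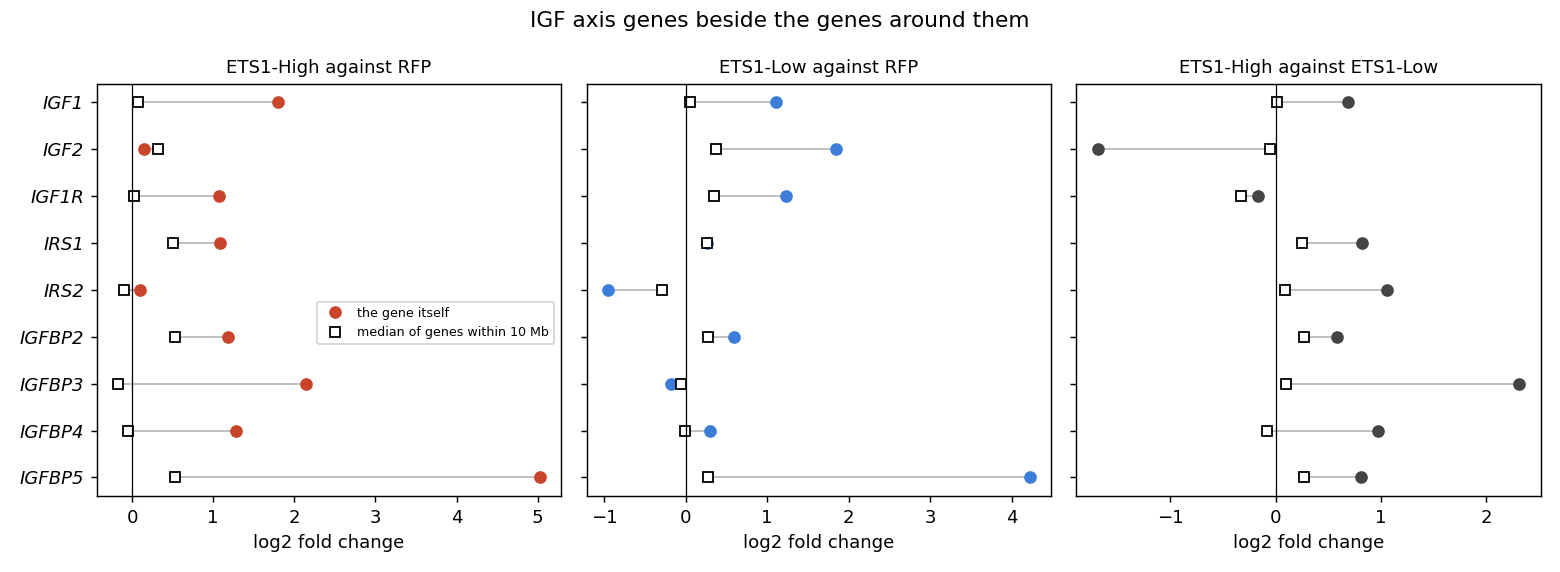
Log2 fold change of 9 of the genes (filled points) beside the median of the tested genes within 10 Mb (open squares) in 3 comparisons. IGFBP5 lies far from its local median against RFP, while IRS1 in ETS1-Low against RFP (0.27) lies beside its own (0.26).

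Patterns most like each gene were searched among the 12401 genes whose mean reached 100 counts, by the root mean square difference of centred log2 CPM over the 9 libraries. The nearest to IGF1 was the zinc finger gene ZNF528 (0.0517), to IGF1R the focal adhesion gene VCL, vinculin (0.0374), and to IRS1 the aryl hydrocarbon receptor gene AHR (0.0319). The lysosomal enzyme gene IDS was nearest to IRS2 (0.0443), the kinase gene STK26 to IGFBP2 (0.0431) and NUDT4 to IGFBP4 (0.0388). For IGFBP3 the nearest was TNS3 (0.131), its neighbour described above. For IGFBP5 it was the interferon-inducible GTPase gene GBP1 (0.101), at 0.827 CPM in RFP, 16.7 in ETS1-Low and 25.5 in ETS1-High. For IRS4 it was the glutamate receptor gene GRIA4 (0.133), at 13.5 CPM in RFP, 0 in ETS1-Low and 0.00846 in ETS1-High. Both genes were near 0 counts in the ETS1 groups, so their likeness there is set by the floor. The next gene was almost as near (0.134).

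Beyond the 10 genes, 84 further genes of the pathway were read from 7 lists, and 79 of them were tested. The 10 genes are left out of all counts of these lists. In ETS1-High against RFP 28 rose, 42 fell and 9 were not called, and their median change was -0.11 (log2). In ETS1-Low against RFP 28 rose, 35 fell and 16 were not called, with a median of -0.01. Of all genes tested, 37.0% rose and 37.2% fell in the first comparison, and 37.9% and 36.2% in the second.

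Of the 3 further ligands and receptors tested (IGF2R, INSR and INSRR), 1 rose and 2 fell from RFP to ETS1-High, and 2 rose and 1 fell from RFP to ETS1-Low. IGF2R, the receptor that removes IGF2, was at 160.9 ± 4.50 CPM in RFP, 192.7 ± 3.12 in ETS1-Low and 180.2 ± 12.2 in ETS1-High. INSR, the insulin receptor, was at 29.6 ± 1.79, 43.3 ± 1.51 and 26.8 ± 2.05 CPM, higher than RFP in ETS1-Low (0.55 ± 0.048 log2, adjusted p = 8.9e-13, edgeR) and lower in ETS1-High (-0.15 ± 0.050, adjusted p = 0.00852, with overlapping libraries). INSR and IGF1R were both highest in ETS1-Low.

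Of 13 further substrates and adaptors tested, 7 rose and 5 fell in ETS1-High against RFP. SOCS2, an inhibitor of growth hormone signalling, was at 12.4 ± 1.10 CPM in RFP, 53.9 ± 1.90 in ETS1-Low and 41.2 ± 1.21 in ETS1-High. GAB1, a docking protein for PI3-kinase and SHP2, was at 9.53 ± 0.424, 26.1 ± 0.327 and 27.9 ± 0.485 CPM. The adaptor gene SH2B2 fell to 1.64 ± 0.442 CPM in ETS1-High from 4.77 ± 0.159 in RFP, and DOK1 rose from 14.7 ± 0.651 to 20.4 ± 0.295.

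Of the 3 further binding protein genes tested, IGFBP6 and IGFBP7 rose and IGFBPL1 fell in ETS1-High against RFP. IGFBP7, which binds IGFs weakly, was at 7.35 ± 0.114 CPM in RFP, 11.4 ± 0.497 in ETS1-Low and 34.0 ± 2.45 in ETS1-High. IGFBP6, which prefers IGF2, was at 1.87 ± 0.311, 4.20 ± 0.720 and 4.58 ± 0.385 CPM, with overlap between the ETS1 groups. IGFBPL1 was chosen after its value was seen.

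Of 10 tested proteases that cleave binding proteins and their inhibitors, 2 rose and 8 fell from RFP to ETS1-High, and 3 rose and 6 fell from RFP to ETS1-Low. HTRA1, a secreted serine protease that cleaves IGFBP5, was at 18.99 ± 0.684 CPM in RFP, 3.08 ± 0.244 in ETS1-Low and 1.48 ± 0.141 in ETS1-High (log2 fold change -3.68 ± 0.094 in ETS1-High, adjusted p = 2.42e-36, edgeR). STC1 and STC2, inhibitors of PAPPA, fell by 1.34 and 0.43 on the log2 scale in ETS1-High and by 2.01 and 0.66 in ETS1-Low. C1R, a complement protease, rose from 8.30 ± 1.28 CPM in RFP to 20.3 ± 1.05 in ETS1-High.

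Of 28 tested genes of the PI3-kinase, AKT and mTOR branch, 10 rose and 12 fell in ETS1-High against RFP, with a median of -0.02. FOXO1, a transcription factor that AKT keeps out of the nucleus, was at 6.26 ± 0.243, 10.0 ± 0.340 and 23.3 ± 0.510 CPM. EIF4EBP1, an mTOR target that restrains translation, was at 90.4 ± 3.51, 90.5 ± 3.94 and 54.4 ± 2.21 CPM. PIK3CD rose by 0.48 ± 0.080 log2 in ETS1-High (adjusted p = 6.16e-07, edgeR).

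Of 13 tested genes known to be induced by FOXO factors, 2 rose and 9 fell from RFP to ETS1-High, and 3 rose and 5 fell from RFP to ETS1-Low. SESN3, a stress-response gene, was at 41.0 ± 1.23 CPM in RFP, 220.6 ± 6.31 in ETS1-Low and 124.5 ± 4.56 in ETS1-High. FBXO32, KLHL24 and BCL6 fell by 0.97, 0.80 and 0.67 on the log2 scale in ETS1-High. KLHL24 and BCL6 were lowest in ETS1-Low, as IRS2, also known to be induced by FOXO factors, was. SESN3 and INSR, of the same list, were instead highest in ETS1-Low, and FBXO32 was lowest in ETS1-High. These named genes thus had no common pattern, and the list as a whole was not tested for one.

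Of 10 regulators of IGF2 RNA, 4 rose and 6 fell in ETS1-High against RFP. LIN28A, a stem cell RNA-binding protein gene, was at 23.8 ± 1.33 CPM in RFP, at 1 count in all in ETS1-Low and at 0 counts in ETS1-High, at least 339.5-fold lower there by the floor of 3 counts per library. PLAGL1, an imprinted zinc finger gene, was at 14.3 ± 1.06 CPM in RFP, 0.0467 ± 0.0405 in ETS1-Low and 0.313 ± 0.0681 in ETS1-High. HMGA2, a chromatin protein gene, fell from 95.7 ± 2.5 CPM to 25.3 ± 1.47 and 16.0 ± 0.232. IGF2BP3, whose product binds IGF2 mRNA, rose from 92.4 ± 2.37 to 113.5 ± 1.44 and 131.5 ± 3.07 CPM.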

How the data were processed

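RNA-seq of 9 TC-32 libraries was analysed, 3 in each of the RFP, ETS1-Low and ETS1-High groups, grouped by their titles. Table columns whose names carry L were taken as ETS1-Low and those with H as ETS1-High. The authors deposited RSEM expected counts per gene and RSEM FPKM values, per the file headers and names. Expected counts apportion reads that map to several genes, and FPKM is scaled to gene length and library size. The submitters' processing notes name cutadapt 4.4, STAR 2.7.3, featureCounts, Subread 2.0.3, limma 3.38.3 and the build GRCh38 (hg38), without roles, and the annotation release is not given in the sources used here. Per the labels' protocols the libraries were made with a stranded mRNA kit.

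Expected counts were rounded and tested with edgeR 4.0.16 in R 4.3.3 (TMM, filterByExpr by group, glmQLFit robust, glmQLFTest, all 9 libraries in 1 fit), with Benjamini-Hochberg adjustment over 17235 genes. CPM uses TMM library sizes. Library totals were 39484704 to 46654734, and floors of 3 counts and counting intervals cover counting error only, since PCR reads carried no molecular identifiers. Replicate libraries differed by more than sampling noise, with a chi-square per gene of 2.66 to 5.19 where noise gives about 1, and each was counted separately. Gene positions came from GENCODE v44 by gene identifier and promoter sequences from RefSeq (GRCh38.p14), with Python 3.11.15 for the searches. A comparison of protein sequences was planned and not run.

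The 10 genes and the wider lists were chosen with earlier results of these data known. From each wider list at most 4 further genes were named, those with the largest absolute change in ETS1-High against RFP among called genes whose mean reached 100 counts. A result that this rule would name is not reported here. For each of the 10 genes with such a mean, the 1 nearest pattern was named, and the tested neighbours of IGFBP2, IGFBP5 and IGFBP3 could be named.

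Alternatives were edgeR with DESeq2 size factors or with upper-quartile factors, the Wald test of DESeq2 1.42.0, no filter on low counts, a mean of at least 10 counts, a block for the replicate number, separate fits per pair of groups, leaving out each library, limma 3.58.1 on log2(FPKM + 1) or log2(FPKM + 0.1) with and without the filter, and local medians within 5 Mb.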

Additional observations from a re-analysis of the deposited data

Results flagged for a closer look

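IRS2 and IGFBP3 were called in opposite directions against RFP in the ETS1 groups, and were flagged for differing between these groups. The test of that difference called both, as it called 59.2% of all genes. It rests on the values that flagged them and is no separate support. For IRS2, the log2 fold change in ETS1-High against ETS1-Low was 1.05 (SE 0.045, adjusted p = 3.64e-26, edgeR), beside 0.10 for ETS1-High and -0.96 for ETS1-Low against RFP. For IGFBP3 it was 2.32 (SE 0.063, adjusted p = 2.51e-33, edgeR), beside 2.14 for ETS1-High and -0.18 for ETS1-Low against RFP. The smaller change of each pair, the rise of IRS2 in ETS1-High and the fall of IGFBP3 in ETS1-Low, lost its call under several alternatives given above. All 3 ETS1-High libraries lay above all 3 ETS1-Low libraries for both genes, which restates the difference that flagged them.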

How the results depend on the processing

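The counts of the 10 genes called were 9, 10 and 9 with the main test, so they had no room to rise by 1.5 times. They stayed within 1.5 times under every alternative run, and so did the count of all genes called. Over the fold changes of the 10 genes, 545 alternatives kept direction and call, 17 lost the call and 6 changed sign or fell to 0. IGF2 in ETS1-High against RFP ranged from -0.22 (without ETS1-High replicate 2) to 0.54 (without RFP replicate 3) when a library was left out, and was -0.07 without RFP replicate 1. IRS2 in the same comparison was -0.004, -0.005 and -0.004 with FPKM and a pseudocount of 1, of 0.1, and of 1 without the filter. IRS4 in ETS1-High against ETS1-Low ranged from 0.0 without ETS1-High replicate 1, which holds its 1 count, to 2.38 without ETS1-High replicate 2. The cause was not tested for IGF2 and IRS2.

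With FPKM, fewer genes of some wider lists, here with any of the 10 genes they hold, were called. In ETS1-Low against RFP, 5 proteases and inhibitors were called with a pseudocount of 1, against 9 with counts. In ETS1-High against ETS1-Low, ligands and receptors went from 5 to 3 in all 3 FPKM settings, proteases and inhibitors from 7 to 4 without the filter, the PI3-kinase branch from 21 to 12, 12 and 11, and regulators of IGF2 RNA from 8 to 5 in all 3. The FPKM settings moved the median of all genes against RFP by -0.10 to -0.13 (log2), and the cause was not tested.

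Deviations of same-numbered libraries were no more alike than those of others. They correlated between -0.130 and 0.138 over 9 same-numbered pairs, with 1 pair over 0.1. Over 18 different-numbered pairs they correlated between -0.1382 and 0.1525, with 1 pair over 0.1. Whether the libraries were prepared as pairs cannot be told from these values. With the replicate number as a block, 12701, 12729 and 10122 genes were called in ETS1-High against RFP, ETS1-Low against RFP and ETS1-High against ETS1-Low, where 12785, 12773 and 10196 were called without it, and 9, 10 and 9 of the 10 genes were called. Depth limits IGF2, with at most 21.1 counts in a library, and IRS4 in the ETS1 groups.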
